A study of Mus musculus with 4 samples.

Results

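The genes described here are 10 genes of steroid hormone synthesis, selected by symbol from the 49997 genes counted in each library. They are Nr5a1, Nr0b1, Mc2r, Star, Cyp11a1, Fdx1, Fdxr, Hsd3b1, Cyp17a1 and Cyp21a1, and all 10 have a row in the files. RNA came from explants of the mouse aorta-gonad-mesonephros region (AGM), the embryonic tissue that holds the dorsal aorta, the gonadal ridge and the mesonephros. Of the 4 libraries, 2 are from untreated explants and 2 from explants given 5 µM CCCP, an uncoupler that lets protons leak across the inner mitochondrial membrane and so abolishes its potential. Both groups are C57BL/6J embryos, and in both the explants were kept for 48 hours on filters at the gas-liquid interface in MyeloCult medium with hydrocortisone at 1e-06 M, so every library comes from tissue already supplied with a glucocorticoid. The labels give E10.5 and E11.5 embryos in one place and E10.5 alone in another. They call the cells stem cells, while the RNA is said to come from whole explants. They do not say whether embryos were pooled, what sex they were, or whether libraries of a group came from separate litters. How much of the spread between libraries is technical is therefore not known.

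Steroid hormones are made from cholesterol in a chain of steps divided between the mitochondrion and the endoplasmic reticulum. Star moves cholesterol to the inner mitochondrial membrane, where Cyp11a1 cuts its side chain to give pregnenolone, with electrons passed from NADPH by ferredoxin reductase (Fdxr) and ferredoxin (Fdx1). Hsd3b1, Cyp17a1 and Cyp21a1 then act mainly in the endoplasmic reticulum to make progesterone, androgen precursors and the precursors of corticosteroids. Nr5a1 encodes the nuclear receptor known as steroidogenic factor, which switches on most of these genes, Nr0b1 encodes a receptor that restrains it, and Mc2r encodes the receptor for the pituitary hormone that drives the adrenal cortex. Adrenal cortex and gonad share an origin in the adrenogonadal primordium, a thickening of the coelomic epithelium beside the mesonephros that is marked by Nr5a1. Import of the 4 mitochondrial proteins needs the membrane potential that CCCP dissipates. The present data are of RNA and do not measure import.

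Promoter sequences were at hand for 5 of the 10 genes, from RefSeq on GRCm38.p6, the build of the counts. The motif set for the DNA site that the Nr5a1 protein binds was AAGGTCA, which was not found in the 250 bases before any of these starts. A part of it, AGGTCA, here called the core, was then searched on both strands in the same bases. This core is found before the start of Nr0b1, with its 5′ letter at position -126, and before the downstream start of Cyp11a1, at position -28. It was not found before the upstream start of Cyp11a1 or before Fdx1, Fdxr and Hsd3b1. Of 32851 such windows in the RefSeq table, 14.0% hold the core. The motif AAGGTCA, which contains the core, is in 4.08% of windows and in none of the member windows. The core alone was searched after that result, and a match to it is not a match to the motif. Bases -200 to -31 of 3 genes are shown in gene orientation, picked by their RNA levels. Those of Nr0b1, on 22 to 50 counts per library, had the same order of libraries as Nr5a1, while Fdx1 and Hsd3b1 did not. Within a library number that order rests on near ties. Nr0b1 had 48 (untreated) and 50 (CCCP) counts in the libraries numbered 1, and 24 and 22 in those numbered 2. A link between the core and the RNA level was not tested. The pick leaves out genes that match less well. Cyp11a1 had the order of Nr5a1 too, with the core before its downstream start alone. Fdxr, without the core, was higher in library 1 of both groups, by 1.22-fold and 1.23-fold. The capitals mark AGGTCA.
Nr0b1 (chrX:86191575-86191744, plus strand): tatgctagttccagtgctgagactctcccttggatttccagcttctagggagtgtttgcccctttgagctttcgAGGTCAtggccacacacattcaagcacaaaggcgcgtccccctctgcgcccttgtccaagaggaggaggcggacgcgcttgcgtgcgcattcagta
Fdx1 (chr9:51963633-51963802, minus strand): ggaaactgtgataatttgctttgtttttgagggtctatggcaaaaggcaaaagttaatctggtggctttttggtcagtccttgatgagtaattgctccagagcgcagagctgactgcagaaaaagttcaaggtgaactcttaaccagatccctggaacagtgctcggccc
Hsd3b1 (chr3:98859825-98859994, minus strand): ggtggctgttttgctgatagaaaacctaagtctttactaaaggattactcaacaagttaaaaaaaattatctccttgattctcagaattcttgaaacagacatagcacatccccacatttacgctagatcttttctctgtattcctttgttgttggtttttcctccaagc
A match describes these letters only, and a window without one says nothing about the factor.

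Levels are given as CPM, counts scaled to library size and by TMM, a factor that evens out library composition. Total counts lay between 37360968 and 48827826, and the library numbered 1 was the deeper in each group. The detection floor used here, 3 counts, is worth 0.0599 to 0.0826 CPM. Across the whole table of 19837 tested genes, edgeR's quasi-likelihood test called 0 genes for the treatment (0%; adjusted p under 0.05), while 14.6% had an unadjusted p under 0.05. DESeq2 called 594 genes (2.99% of all genes tested), none of them a member. At that share a call among the 8 members tested would be rare. The hepatocyte markers, which are no part of steroid synthesis, were the genes that differed most among the lists read here: for all 12, every CCCP value lay below every untreated value, against 24.8% of all genes tested, with a summed level of 1568 and 912 CPM without treatment against 6.49 and 73.4 CPM in the CCCP libraries.

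**Figure D1:**
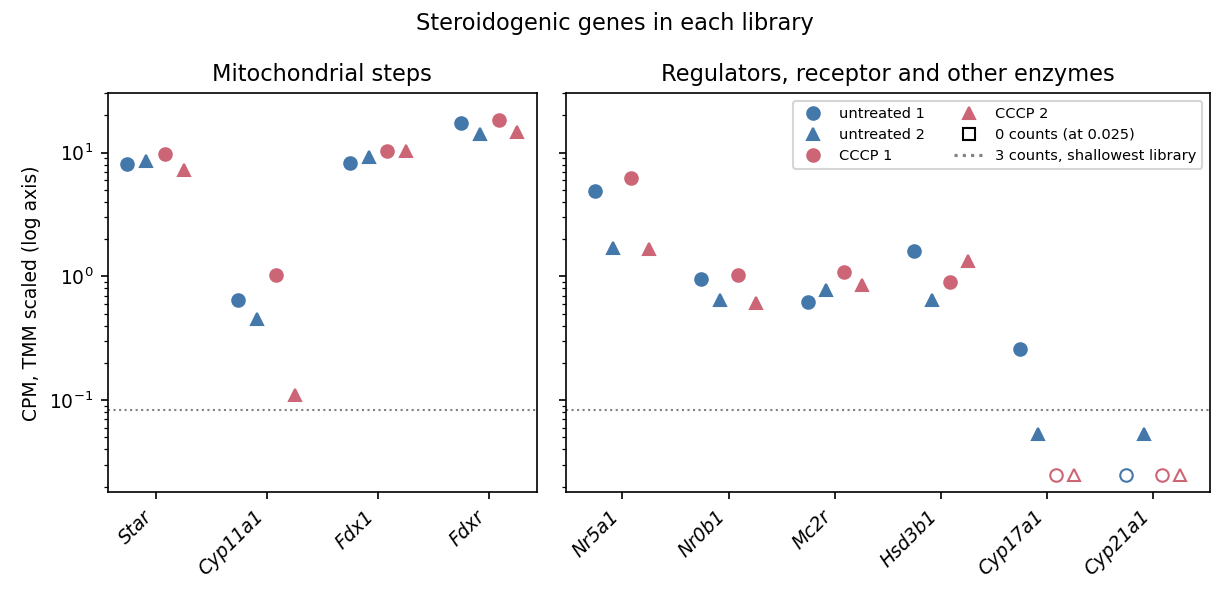
Levels of the 10 genes in each library as CPM on a log axis, mitochondrial steps on the left and the other members on the right. Circles are libraries numbered 1, triangles libraries numbered 2, blue untreated and red CCCP, with open symbols for 0 counts drawn at 0.025 CPM and the dotted line at 3 counts in the shallowest library. Nr5a1 splits by library number rather than by treatment, and Cyp17a1 and Cyp21a1 lie at or near the floor.

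Nr5a1 (chromosome 2, 38692656 to 38714542, minus strand), the regulator that marks the adrenogonadal primordium, stood at 4.85 and 1.68 CPM in untreated libraries 1 and 2 and at 6.18 and 1.65 CPM in CCCP libraries 1 and 2. The libraries numbered 1 were high in both groups and those numbered 2 low, and the groups overlapped. Within a group, library 1 was above library 2 by 2.88-fold (untreated) and 3.74-fold (CCCP). The difference between treatments was smaller than this spread, at 3.27 ± 2.24 CPM in untreated and 3.91 ± 3.20 CPM in CCCP explants (SD, n = 2 in each). Its log2 fold change was 0.26 (95% interval -1.49 to 2.01), with an edgeR adjusted p of 0.889. The sign depended on 1 library: the log2 fold change was -0.99 without CCCP replicate 1, -0.28 without untreated replicate 2 and 1.24 without untreated replicate 1.

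Nr0b1 (chromosome X, 86191775 to 86195947, plus strand), the restraining partner of Nr5a1, was at 0.958 and 0.641 CPM without treatment and at 1.03 and 0.606 CPM in the CCCP libraries. Like Nr5a1 it was higher in the libraries numbered 1, here by 1.49-fold and 1.70-fold, and the groups overlapped. Its log2 fold change was 0.03 (95% interval -1.21 to 1.28, edgeR adjusted p 0.983), and it changed sign when either untreated replicate 2 or CCCP replicate 1 was left out and when no library scaling was used. Relative to Nr5a1 per kilobase of exon, Nr0b1 RNA was at 0.350 and 0.295 in the libraries numbered 1 and at 0.674 and 0.649 in those numbered 2.

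Mc2r (chromosome 18, 68406899 to 68429320, minus strand), the receptor for adrenocorticotropic hormone, had 31 and 29 counts in the untreated and 53 and 31 in the CCCP libraries, which correspond to 0.619, 0.775, 1.09 and 0.854 CPM. Both CCCP libraries lay above both untreated ones, as they did for 24% of all genes tested. The log2 fold change of 0.49 was the farthest from 0 among the 8 members tested, with a 95% interval of -0.62 to 1.60 and an edgeR adjusted p of 0.636. Mrap, whose product brings this receptor to the cell surface, had 17 to 38 counts per library and overlapping groups.

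Among the mitochondrial steps, Star (chromosome 8, 25808474 to 25815982, plus strand), which delivers cholesterol, had 8.12 and 8.50 CPM in untreated and 9.80 and 7.24 CPM in CCCP libraries. The CCCP values lay on either side of both untreated values. Its log2 fold change was 0.04, or -0.02 without library scaling, and its edgeR adjusted p was 0.954. The 95% interval, from a 0.691-fold to a 1.53-fold level, bounds the difference more tightly than for Nr5a1.

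Cyp11a1 (chromosome 9, 57998024 to 58027031, plus strand), the side-chain cleavage enzyme that gives pregnenolone, was counted 32 and 17 times in the untreated and 50 and 4 times in the CCCP libraries. These are 0.639, 0.454, 1.03 and 0.110 CPM, so the highest and the lowest library were both CCCP libraries. The 95% exact binomial interval of CCCP replicate 2 (0.0290 to 0.273 CPM before TMM scaling) does not reach that of CCCP replicate 1 (0.760 to 1.35). Intervals of this kind cover counting error only. Library 1 was 1.41-fold above library 2 in untreated explants and 9.34-fold above it under CCCP. The log2 fold change between treatments was 0.08 (95% interval -2.19 to 2.35, edgeR adjusted p 0.977). Without CCCP replicate 1 it was -2.29, without untreated replicate 2 it was -0.11, and without CCCP replicate 2 it was 0.90. A predicted gene on the same strand, Gm17322, covers 18.8% of the exon bases of Cyp11a1, and reads that touch both genes were not counted.

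Fdx1 (chromosome 9, 51943023 to 51963602, minus strand), the ferredoxin, had 8.16 and 9.19 CPM in untreated and 10.3 and 10.3 CPM in CCCP libraries. Both CCCP libraries were above both untreated ones, and the libraries numbered 1 and 2 were within 0.888-fold and 1.01-fold of each other. Its log2 fold change was 0.25 ± 0.197 (standard error), with a 95% interval of -0.23 to 0.73 and an edgeR adjusted p of 0.575. It lay between 0.17 and 0.35 whichever library was left out. Fdxr (chromosome 11, 115268024 to 115277101, minus strand), the reductase that charges it, had 17.2 and 14.2 CPM in untreated and 18.3 and 14.8 CPM in CCCP libraries, with overlapping groups. Its log2 fold change was 0.07, or -0.05 once the trend with exon length was removed, with a 95% interval of -0.41 to 0.56 and an edgeR adjusted p of 0.884. Per kilobase of exon, Fdxr RNA exceeded Fdx1 RNA 2.38-fold to 3.49-fold in the 4 libraries.

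Of the enzymes past pregnenolone, Hsd3b1 (chromosome 3, 98842356 to 98859794, minus strand), which makes progesterone, had 1.62 and 0.641 CPM in untreated and 0.906 and 1.32 CPM in CCCP libraries. It did not go with Nr5a1: library 1 was 2.52-fold above library 2 in untreated explants and 0.685-fold of it under CCCP. The log2 fold change was -0.04 (95% interval -1.39 to 1.32, edgeR adjusted p 0.984). It was 0.80 without untreated replicate 1, 0.22 without CCCP replicate 1 and -0.52 without untreated replicate 2. Of its 50-base stretches in GENCODE transcripts, 4.86% occur in another gene, mostly the neighbouring paralogs Hsd3b6, Hsd3b2 and Hsd3b3. Stretches that differ by a few bases were not searched. Per kilobase of exon Hsd3b6 exceeded Hsd3b1 by 6.13-fold to 14.4-fold, so this share does not bound the error in the level of Hsd3b1.

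Cyp17a1 (chromosome 19, 46667165 to 46673000, minus strand), the enzyme that opens the way to androgens, was counted 13 and 2 times in untreated explants and 0 times in both CCCP libraries. It did not pass the filter on low counts and was not tested with the others. Pooled over each group, its level in untreated explants was 0.171 CPM. That is at least 4.85-fold above the floor of the CCCP group, 0.0353 CPM, which is 3 counts over both libraries together. The bound rests on untreated replicate 1, since the 2 counts of untreated replicate 2 are under the 3-count floor and give none. Where no filter was applied, its edgeR adjusted p was 0.29. A predicted gene on the other strand shares 5.00% of its exon bases, where the counting, which ignored strand, cannot separate them. Its level was higher in untreated replicate 1 than in untreated replicate 2, as were those of Nr5a1, Amh, Ddx3y and the hepatocyte marker Alb. Alb was at 376 and 151 CPM in untreated and 0.165 and 11.1 CPM in CCCP libraries. The Cyp17a1 counts are too few to show whether that gene followed Alb or not. Insl3, a defining marker of Leydig cells, was near the floor, with 2, 4, 2 and 1 counts. The part of either cell type in the Cyp17a1 counts was not tested. As in any bulk tissue, fewer cells of a type and less RNA per cell cannot be told apart here.

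Cyp21a1, the enzyme of the adrenal cortex that leads to corticosteroids, had 2 counts in untreated replicate 2 and 0 in the other 3 libraries, at or under the floor in all 4. Its annotation covers chromosome 17 (34801348 to 34804426, minus strand) and 3 alternate contigs, so its listed exon length of 7694 bases counts the gene once per contig. In addition, 23.9% of its 50-base stretches occur in other transcripts, chiefly the pseudogene Cyp21a2-ps, and reads that map to several places were not counted. Cyp11b1 and Cyp11b2, the mitochondrial enzymes that finish corticosterone and aldosterone, had 2 counts or fewer per library and 0 counts, respectively. The counts of these late enzymes of the adrenal cortex were at or under the floor. For Cyp21a1, reads lost because they map to the chromosome and to the alternate contigs cannot be told apart from a low level.

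**Figure D2:**
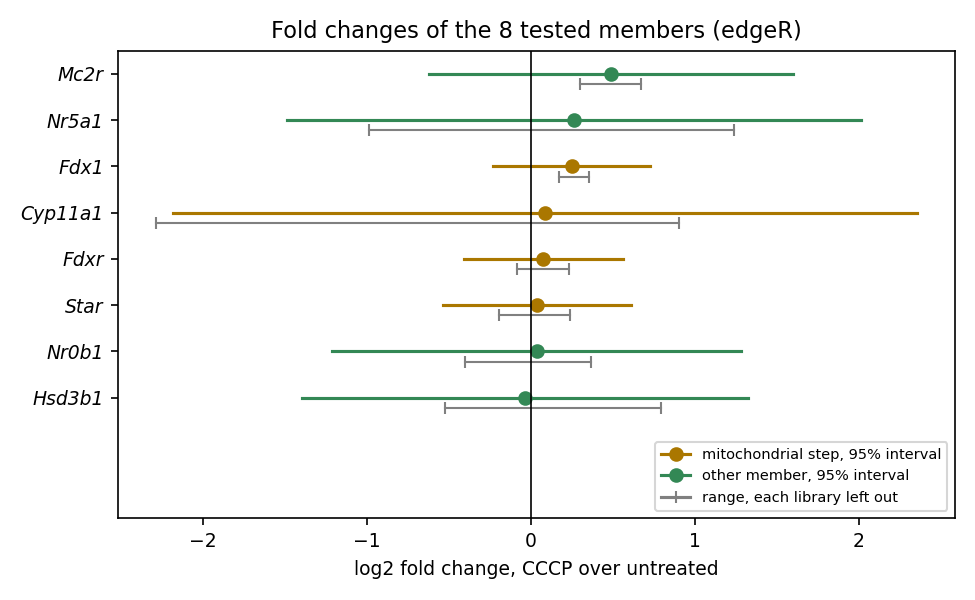
Log2 fold changes of CCCP over untreated for the 8 members that passed the filter, from edgeR with 95% intervals (coloured lines) and the range when each library was left out in turn (grey). Every interval spans 0, and the grey ranges of Nr5a1, Cyp11a1, Hsd3b1, Nr0b1, Fdxr and Star also span 0, while those of Mc2r and Fdx1 do not.

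The 4 mitochondrial steps were set against the other members. All 4 were tested and 0 were called. Their median log2 fold change was 0.08, between 0.04 and 0.25, and summed they stood at 34.2 and 32.3 CPM in untreated and 39.4 and 32.4 CPM in CCCP libraries. Of the 6 other members 4 passed the filter and 0 were called, with a median of 0.15, between -0.04 and 0.49. Summed, the 6 stood at 8.30 and 3.85 CPM in untreated and 9.20 and 4.44 CPM in CCCP libraries. The median over all genes tested was -0.01. Among the tested members the groups did not overlap for 1 gene in each class, Fdx1 and Mc2r, against 48.8% of all genes tested. They did not overlap for the untested Cyp17a1 either, on the counts given above.

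Between the library numbers the sums differed most where Nr5a1 was included. Without Nr5a1 the order of the sums was not the same in untreated and CCCP explants. The sum of the other members was 2.16-fold (untreated) and 2.08-fold (CCCP) higher in library 1 than in library 2, and without Nr5a1 it was 1.60-fold and 1.09-fold higher. The sum of Star and Cyp11a1 was 0.979-fold and 1.47-fold, and that of Fdx1 and Fdxr 1.09-fold and 1.14-fold. These sums are dominated by their best counted genes.

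Per kilobase of exon, the mean over the 4 libraries placed Fdxr highest, at 7.74 CPM per kilobase, followed by Fdx1 at 2.76, Star at 2.08 and Nr5a1 at 1.13. Hsd3b1 (0.561), Nr0b1 (0.450), Mc2r (0.449) and Cyp11a1 (0.178) came next, and Cyp17a1 was at 0.0425. Fdxr, at 6.81 to 8.78, did not overlap Fdx1, at 2.37 to 3.004. Further down, each gene overlapped the next across libraries (Star ran from 1.79 to 2.42 and Nr5a1 from 0.520 to 1.94), except that Mc2r, at 0.333 to 0.587, ended just above Cyp11a1, at 0.0351 to 0.328. Star exceeded the cleavage enzyme it feeds, Cyp11a1, by 9.86-fold and 14.5-fold in untreated and 7.38-fold and 51.0-fold in CCCP libraries. Reads on the 18.8% of Cyp11a1 exon bases shared with Gm17322 were not counted, while its full exon length was used. Its values per kilobase may therefore be too low, which bears on its place below Mc2r and on its ratios to Star.

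Nr5a1 was then read beside markers of the cells around it. A level at least 2-fold higher in library 1 than in library 2 of both groups was found for 1 of the 8 tested members, Nr5a1, and for 2.74% of all genes tested. Among tested genes with a mean under 5 CPM, as Nr5a1 has, the share was 6.77%, and 3.90% without the genes that passed the filter only through the libraries numbered 1. Amh, the hormone made by Sertoli cells of the fetal testis, had 2.67 and 0.401 CPM in untreated and 2.41 and 0.496 CPM in CCCP libraries, and thus followed the same split, by 6.67-fold and 4.86-fold. Rhox8, another Sertoli gene, had 25 and 16 counts in the libraries numbered 1 and 0 in those numbered 2, and Ptgds had 17 and 34 against 2 and 0. These 2 of the 8 tested Leydig and Sertoli markers passed the filter only through the libraries numbered 1, so their higher level there was fixed by the filter. Of the other 6, 5 were higher in library 1 in both groups, against 29.7% of all tested genes with the same exclusion, and 1, Amh, at least 2-fold. Inha, a subunit of the gonadal hormone inhibin, was 1.64-fold and 1.73-fold higher in library 1, while Sox9, at 56.9 to 64.1 CPM, was not among the 5.

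Regulators of the adrenogonadal primordium split less widely than Nr5a1 by library number, or not at all. Of the 19 genes on this list 9 were higher in library 1 of both groups, against 31% of all genes tested. None (0 of 19) was at least 2-fold higher in both, a share of 2.74% over all genes tested and of 0.307% over those with a mean of 5 CPM or more. Gata4, a zinc finger factor of the gonadal ridge, was 1.54-fold and 2.64-fold higher in library 1, and Wt1, the Wilms tumour factor, 1.53-fold and 1.23-fold. Osr1, a zinc finger factor of the intermediate mesoderm, was 1.52-fold and 1.54-fold higher. Lhx9, a homeobox factor of the same epithelium, was at 24.9 and 22.7 CPM in untreated and 20.4 and 24.8 CPM in CCCP libraries. The summed level of the list was between 1160 and 1301.5 CPM in all 4 libraries.

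Markers of neighbouring cells split by library number too, in both directions. Of 9 mesonephric markers 3 were higher in library 1 of both groups and 4 in library 2. Pax2, Pax8 and Lhx1, early factors of the nephric lineage, were higher in library 1 by 1.76-fold, 1.69-fold and 1.48-fold in untreated and by 1.49-fold, 1.65-fold and 1.49-fold in CCCP explants. Krt18, an epithelial keratin, was in library 1 at 0.477-fold and 0.634-fold of its level in library 2, and Cldn3 and Wfdc2 were also lower there. The sum over the list, between 186 and 209 CPM, does not show these opposed differences. Of 10 sympathoadrenal markers 5 were higher in library 1 of both groups and 2 in library 2. Among them Chga, a protein of secretory granules, was higher in library 1 by 1.63-fold and 1.60-fold, while Hand2 was at 0.650-fold and 0.682-fold. Their sum was between 117 and 128 CPM. The part of these cell types in the split of Nr5a1 was not tested.

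**Figure D3:**
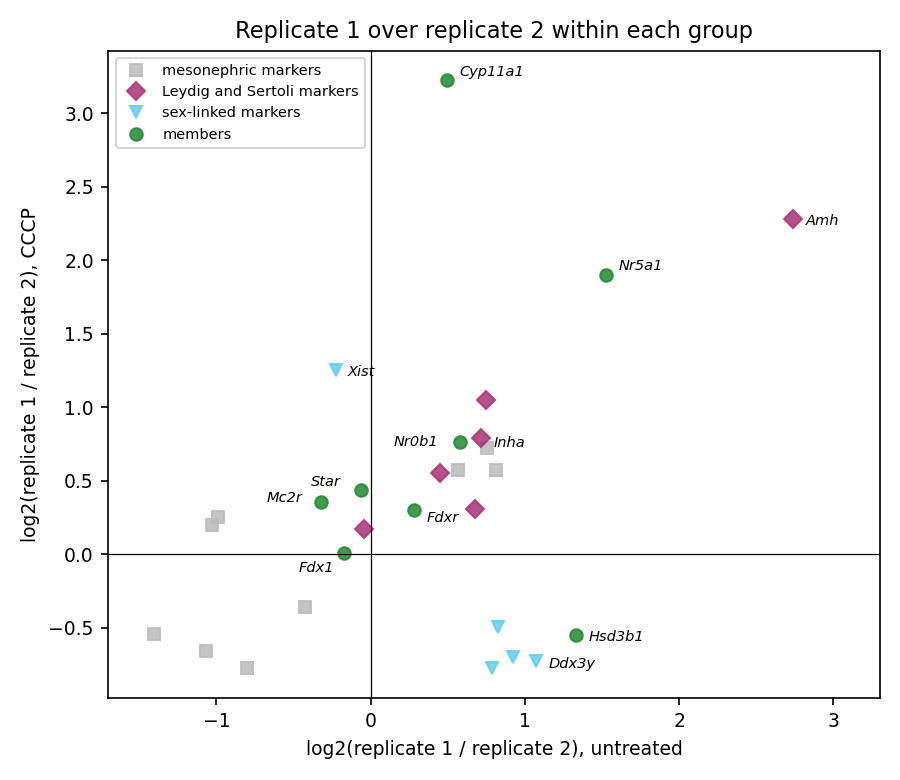
Log2 ratio of library 1 over library 2 in untreated explants (horizontal) and in CCCP explants (vertical), for the 8 tested members (green) and for marker genes that had counts in all 4 libraries. Nr5a1 and Amh lie far to the upper right, Hsd3b1 lies with the Y-linked genes at the lower right, and Fdx1 lies close to the origin. The vertical place of Hsd3b1 rests on 44 and 48 counts.

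The sex-linked genes gave another order. Ddx3y, a Y-linked gene, was at 45.3 and 21.6 CPM in untreated and 27.6 and 45.7 CPM in CCCP libraries, and the other 3 Y-linked genes had their highest levels in the same 2 libraries, untreated replicate 1 and CCCP replicate 2. Xist, which is made from the inactive X chromosome of female cells, was at 1143 and 1338 CPM in untreated and 414 and 173 CPM in CCCP libraries, -2.08 on the log2 scale (edgeR adjusted p 0.166). Hsd3b1 was highest in untreated replicate 1 and CCCP replicate 2, as were the Y-linked genes. Cyp11a1 was lowest in CCCP replicate 2, whereas Nr5a1 and Nr0b1 were about equally low in both libraries numbered 2. The levels of sex-linked genes thus were unequal across the libraries, and the part of embryo sex in the levels of the steroidogenic genes was not tested.

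**Figure D4:**
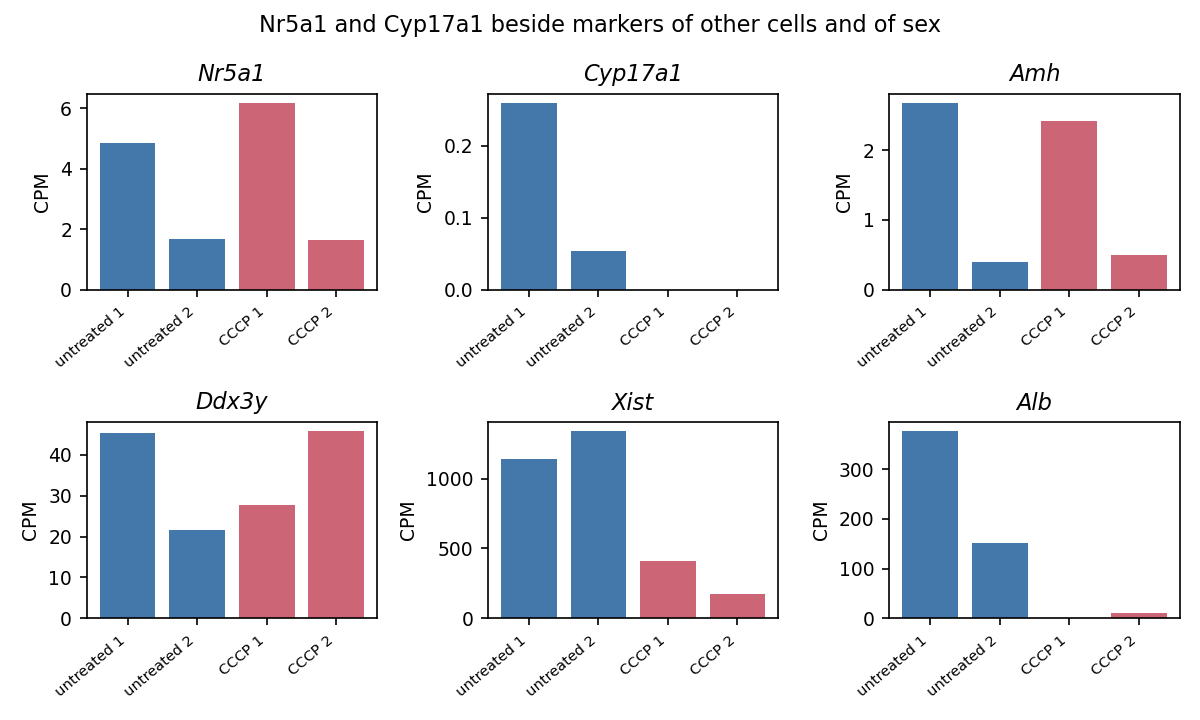
CPM of Nr5a1, Cyp17a1, Amh, Ddx3y, Xist and Alb in each of the 4 libraries, untreated in blue and CCCP in red, with 1 bar per library. Nr5a1 and Amh are high in the libraries numbered 1, Xist and Alb are high in the untreated libraries, and Cyp17a1 has no counts under CCCP.

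The rest of the pathway was read from lists of related genes. Of 26 other steroid enzymes in the files 17 were tested and 0 were called, with 11 of the log2 fold changes above 0 and 6 below and a median of 0.04. Without library scaling 8 were above 0 and 9 below, with a median of -0.02. Over all genes tested 9751 of 19837 were above 0. Hsd3b6, a paralog of Hsd3b1, was the nearest to a difference among those higher: it had 8.92 and 6.68 CPM in untreated and 11.8 and 14.7 CPM in CCCP libraries, 0.76 on the log2 scale (edgeR adjusted p 0.272). Its groups did not overlap. Per kilobase of exon it exceeded Hsd3b1 by 6.13-fold to 14.4-fold. Srd5a3 had a log2 fold change of 0.47, and Hsd3b7, an enzyme of bile acid synthesis, and Srd5a2, a steroid reductase, had -0.56 and -0.99. Aromatase (Cyp19a1), the estrogen sulfotransferase Sult1e1 and the receptor for follicle-stimulating hormone, Fshr, had 0 counts in every library.

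Genes that bring cholesterol to the mitochondrion were at a median of 0.26 on the log2 scale over 17 genes, 14 above 0, and 0 were called. That median was 0.19 with the exon length trend removed and ran from 0.14 to 0.34 with each library left out. Stard3 and Stard5, relatives of Star that bind sterols, had 0.52 and 0.39 (edgeR adjusted p 0.206 and 0.303), and Stard6 and Stard4 had -1.15 and -0.30. Star itself, at 0.04, lay between them. The list of mitochondrial P450 enzymes and iron-sulfur assembly factors includes partners of Fdx1 and Fdxr. It had a median of 0.24 over 17 genes, 15 above 0, with 0 called. With the exon length trend removed the median was 0.11, with 13 above 0, and with each library left out it ran from 0.14 to 0.36. Cox10, which acts in haem A synthesis, and Glrx5, a glutaredoxin of iron-sulfur transfer, had 0.39 and 0.49 (edgeR adjusted p 0.314 and 0.338). Cyp27a1 and the other ferredoxin, Fdx2, had -0.41 and -0.05. Fdx1, at 0.25, was close to the median of that list.

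The receptors and cyclic AMP genes had a median of -0.08 over 15 genes, 4 above 0, with 0 called. Creb1, a transcription factor that acts downstream of Mc2r, had the smallest unadjusted p of this list, with 122 and 125 CPM in untreated and 70.0 and 94.2 CPM in CCCP libraries, -0.59 on the log2 scale (edgeR adjusted p 0.241). Lhcgr, the receptor for luteinizing hormone, was at -1.44 on 5 to 26 counts, and Prkaca and Gnas were at 0.24 and 0.18. Among the regulators of the primordium the median was 0.05 over 19 genes (-0.01 without library scaling) with 0 called, Wnt4 and Tcf21 being at 0.43 and 0.46 and Nr5a2 and Zfpm2 at -0.61 and -0.45.

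Since hydrocortisone was in the medium of both groups, the glucocorticoid receptor and its targets were read as well. The median was 0.03 over 14 genes (-0.03 without library scaling), with 0 called. The receptor Nr3c1 had 40.7 and 31.3 CPM in untreated and 25.9 and 28.3 CPM in CCCP libraries, -0.41 on the log2 scale (edgeR adjusted p 0.342), and Klf9 had -0.46. Tsc22d3, a target, was at 0.24, and Dusp1 at 0.18. Hsd11b2, which inactivates glucocorticoids, was at 17.9 to 36.7 CPM across the 4 libraries.

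The remaining marker lists also had 0 called by edgeR. DESeq2 called 7 of the 12 hepatocyte markers and Xist, against 2.99% of all genes tested. Among Leydig and Sertoli markers the log2 fold changes were 1.19 for Dhh, 0.82 for Ptgds, -0.19 for Inha and -0.57 for Rhox8, and among sympathoadrenal markers 0.44 for Hand2 and -0.28 for Phox2a. Mesonephric markers had a median of 0.45 over 9 genes (0.18 without CCCP replicate 2 and 1.09 without untreated replicate 2), with 0.84 for Cdh16, -0.28 for Lhx1 and -0.14 for Pax2. The hepatocyte median was -4.87 over 12 genes, with -3.70 for Ttr and -4.52 for Apoa2. That median was -8.38 without CCCP replicate 2 and -3.89 without CCCP replicate 1. Of the sex-linked genes, Kdm5d and Ddx3y had 0.37 and 0.13, and Eif2s3y -0.20.

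**Figure D5:**
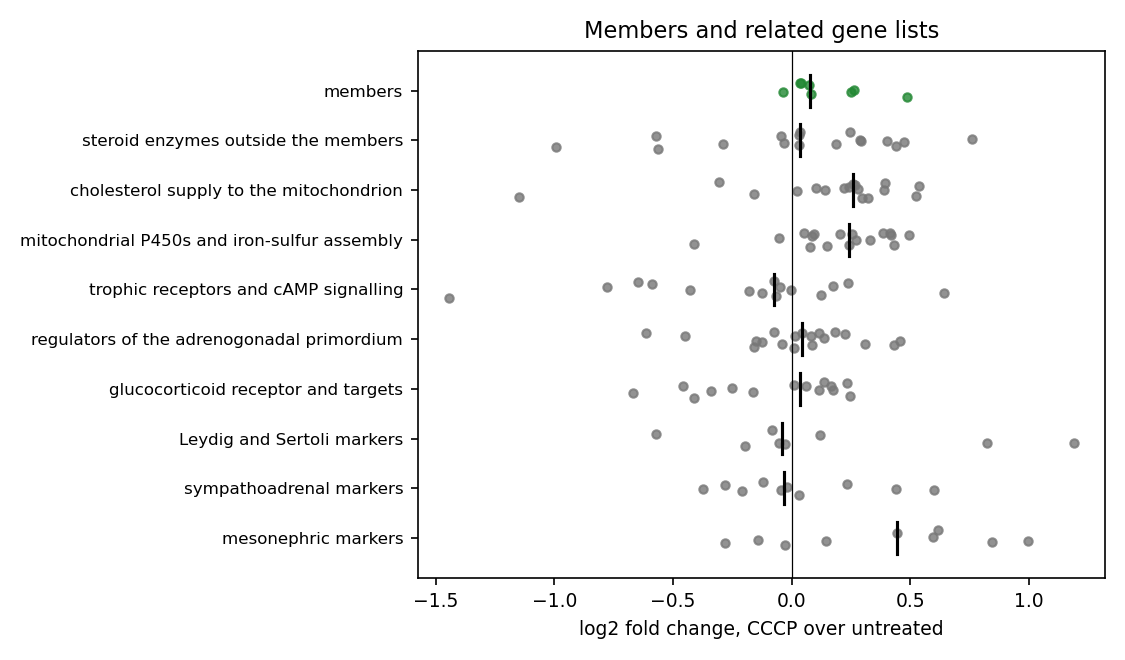
Log2 fold changes of CCCP over untreated for the 8 tested members (green) and the tested genes of 9 related lists (grey), 1 point per gene, with black bars at the medians. The members lie between -0.04 and 0.49, and the medians of the cholesterol supply list (0.26) and the iron-sulfur list (0.24) lie to the right of the members' median.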

How the data were processed

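Reads per gene were deposited by the authors as raw counts, made by featureCounts 2.0.3 with a RefSeq annotation of mm10, per the file headers. Exons were summed per gene with no strand option, no counting of read pairs as fragments and no counting of reads that map to several genes or places, per the file headers. HISAT2 and SAMtools are named in the submitters' processing notes. Counts were fitted across all genes with edgeR 4.0.16 (glmQLFit, glmQLFTest) in R 4.3.3 with TMM scaling and filterByExpr (minimum count 10, minimum total 15), the group being the sole term. Tests were two-sided. A call needed a Benjamini-Hochberg adjusted p under 0.05, adjusted over all 19837 genes tested. The 95% intervals were taken from the standard error, which is the fold change over the square root of F. The script was tested on simulated data. An exact permutation test of 2 against 2 cannot go below 0.333 and was not used. The genes and the related lists were chosen with earlier results of these data known. From each list, the genes named are the 2 with the smallest unadjusted p above and the 2 below a log2 fold change of 0. Some genes that this rule names are not reported here. Other genes, such as Amh, Alb, Insl3, Gata4, Wt1, Lhx9, Osr1, Sox9, Pax8, Krt18, Chga and Mrap, and the reading by library number were chosen after their values were seen. In the lists 2 symbols, Sts and Fdx1l, were not matched. Alternatives changed scaling, filter, test, libraries, replicate block and exon length trend. Protein sequences and the promoters of the other 5 members are not used here.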

Additional observations from a re-analysis of the deposited data

How the results depend on the processing

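No member was called under any of the alternatives run, which called at most 10.7% of all genes tested. They gave 96 values for the 8 tested members, with a lowest edgeR adjusted p of 0.42 (Fdx1 with the replicate block). Cyp17a1 and Cyp21a1, fitted without a filter alone, had edgeR adjusted p of 0.29 and 0.80. The count of genes called, 0 in edgeR, was 1107 without a filter beyond 1 count, 594 in DESeq2, and 1 to 34 when a library was left out. It was 0 with RLE size factors, without scaling, with a minimum count of 3, with the exon length trend removed, and at an adjusted p under 0.1. With the replicate block it was 2118 (10.7% of all genes tested), and with the replicate block and the exon length trend removed 1125 (5.67%). The cause was not tested. Deviations of same-numbered libraries from their group means had a correlation of 0.36 across genes, but the labels do not say what a number marks, so the numbers were not taken as a pairing. The block narrowed the spread of Nr5a1 (standard error 0.275 in place of 0.719) at a log2 fold change of 0.18 and an edgeR adjusted p of 0.71. Of the related genes it called Hsd3b6, Hsd11b2, Stard3, Npc2, Glrx5, Creb1, Wnt4, Hand2, Cldn3, Krt18, Xist and the 12 hepatocyte markers. Outside the hepatocyte list these were 0 to 2 genes of each list, such as 2 of 17 other steroid enzymes, against 10.7% of all genes tested. With the length trend also removed, Npc2, Wnt4, Xist and the 12 hepatocyte markers were called again, the others named were not, and Hsd3b7, Gnas, Cbx2 and Ddit4 were. Without a filter, Srd5a2, Creb1, Xist and the 12 hepatocyte markers were called, against 3.43% of all genes fitted. Of the hepatocyte markers, 9 were called without CCCP replicate 2 and 1, Ttr, without untreated replicate 2. Signs turned as follows. Nr0b1 was at -0.023 without scaling, -0.11 without the length trend and -0.12 with the block as well. Star was at -0.016 without scaling. Fdxr was at -0.049 without the length trend and -0.046 with the block as well. Cyp11a1 was at -0.30 with the replicate block and -0.36 with the length trend also removed, and Hsd3b1 at 0.044 with the replicate block. With each library left out, the log2 fold changes ran from -0.99 to 1.24 for Nr5a1, -0.40 to 0.37 for Nr0b1, -0.20 to 0.24 for Star, -2.29 to 0.90 for Cyp11a1, -0.086 to 0.23 for Fdxr and -0.52 to 0.80 for Hsd3b1. The medians ran from -0.14 to 0.25 for the mitochondrial steps and from -0.24 to 0.58 for the other members. Where 1 library was left out of a group, the lone one was assumed to vary like the other group. The parts of depth and of the spread between libraries in the precision were not separated: the standard error was 0.93 for Cyp11a1 (4 to 50 counts per library), 0.46 for Mc2r (29 to 53) and 0.51 for Nr0b1 (22 to 50).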
